A study of Mus musculus with 13 samples.

Results

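NRF2 and 9 of its antioxidant target genes were followed in the mouse melanoma cell line YUMM1.7, a cultured line of wild-type genotype on its label. The 10 genes were Nfe2l2, Hmox1, Nqo1, Slc7a11, Gclc, Gclm, Gsr, Txnrd1, Srxn1 and Osgin1. They were chosen by symbol, with earlier results of these data known. All 10 were found by Ensembl identifier among the 54532 genes of the count table. The study sequenced 13 libraries, each the only library of its condition. Total RNA and RNA precipitated with J2, an antibody to double-stranded RNA, or with Z22, an antibody to Z-form RNA, came from cells given DMSO, ADAR1i-124 at 10 µM for 12 h, 5-AZA-CdR at 1 µM for 72 h, or both compounds. In the combination the cells had 5-AZA-CdR at 1 µM for 72 h and, after it, ADAR1i-124 for 12 h more. The labels give no ADAR1i-124 dose for it, and a supplementary legend names 10 µM as well as another arm at 1 µM. ADAR1i-124 is a small-molecule inhibitor of the RNA-editing enzyme ADAR1, and 5-AZA-CdR (decitabine) is an inhibitor of DNA methylation. Precipitated RNA had been treated with RNase I and DNase before the antibody step. A control library with IgG was also sequenced, with no treatment of the cells stated.

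NRF2, encoded by Nfe2l2, is the transcription factor that cells use against oxidants and electrophiles. In resting cells the adaptor KEAP1 holds NRF2 and has it degraded. When oxidants or electrophiles modify KEAP1, NRF2 protein accumulates, pairs with a small MAF protein and binds antioxidant response elements, so that its targets can be induced without any change in Nfe2l2 mRNA. The targets make and recycle glutathione, keep thioredoxin and peroxiredoxins reduced, and break down heme and quinones.

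The antioxidant response element has the core TGACNNNGC, which reads GCNNNGTCA on the other strand. It was searched for on both strands of RefSeq promoter windows on GRCm38.p6, each holding 250 bases before and 50 bases after a start site. These sequences are shown because the core is the DNA feature that NRF2 recognizes at its targets. Windows were at hand for 7 of the 10 genes (Nfe2l2, Srxn1, Slc7a11, Gclm, Nqo1, Osgin1 and Txnrd1, the last with 3 start sites). The core stood in 4 of these 9 windows, and in 12.4% of all 32851 windows. None of the 4 held the related AP-1 site TGACTCA. Each is given 5′ to 3′ on the strand of its gene, with the 9 bases of the core in capitals.
Nfe2l2, chr2:75704885-75704913, minus strand, core from 240 bases before the start: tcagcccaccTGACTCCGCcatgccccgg
Gclm, chr3:122245413-122245441, plus strand, core from 134 bases before the start: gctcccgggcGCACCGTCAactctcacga
Txnrd1, chr10:82859104-82859132, plus strand, core from 92 bases before the start: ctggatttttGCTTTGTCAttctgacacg
Srxn1, chr2:152105542-152105570, plus strand, core from 28 bases after the start: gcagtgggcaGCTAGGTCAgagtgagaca
A match of 9 letters is a description of the sequence and not a measured binding site. Elements farther than these windows from the start were not searched.

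Before the results, some facts of the libraries bear on them. The 12 libraries used held 8167960 to 34571822 counts, so that 3 counts corresponded to 0.0704 to 0.578 CPM, the count of a gene per 1e6 counts of its library. CPM values were scaled with trimmed-mean (TMM) factors of 0.595 to 1.23. The combination library of total RNA was left out, since the 10 genes held 0 to 13 counts each there and 22.6% of its 1245894 counts lay in genes annotated as antisense, against 0.106% to 0.176% in the others. The Z22 library from DMSO cells stood apart, with 34.9% of its counts in Gm42418, a locus with ribosomal RNA sequence, against 10.6% to 18.9% in the other precipitated libraries and IgG and at most 0.334% in total RNA. Of the melanocyte lineage markers Mitf was expressed at 17.7 CPM or more in total RNA, while Sox10, Mlana, Tyr, Tyrp1 and Dct stayed at or under 3 counts in each total RNA library. Pmel reached 15 counts there, so the pigment cell label was not backed by these markers. The leukocyte gene Cd3e and the keratinocyte genes Krt5 and Krt14 held at most 1 count per total RNA library. The third keratinocyte marker, Krt10, held 0.795 to 1.34 CPM in the total RNA libraries. Other leukocyte markers were detected there, with Cd68 at 7.00 to 61.2 CPM and Ptprc and Adgre1 reaching 42 and 6 counts. The endothelial marker Cdh5 held 3.13 to 65.8 CPM.

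In total RNA with ADAR1i-124, the NRF2 targets stood well above DMSO while Nfe2l2 itself did not. At least 2-fold higher were 8 of the 10 genes and none was 2-fold lower. Among the 13324 genes averaging 1 CPM or more over both libraries, 8.17% reached 2-fold above DMSO and 7.50% 2-fold below it. The median log2 ratio of the 10 genes was 1.50, against -0.04 over all genes. With 1 library per condition no test of treatment within a fraction was possible (one over fractions is given further on), and the 95% intervals given with log2 ratios (exact binomial) cover counting error only. In bulk RNA, fewer cells of a type and less RNA per cell cannot be told apart.

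Hmox1, the inducible heme oxygenase that breaks heme into biliverdin, iron and carbon monoxide, had the largest ratio of the 10. Hmox1 (ENSMUSG00000005413, chromosome 8, 75093621 to 75100589, plus strand) measured 44.6 CPM in DMSO and 1046 CPM with ADAR1i-124, while 5-AZA-CdR gave 149 CPM. The ADAR1i-124 library was therefore 23.2-fold above DMSO, a log2 ratio of 4.54 (4.46 to 4.65), and 99.9% of genes had a smaller ratio. Per kilobase of exon, Hmox1 went from 25.4 CPM, below Nfe2l2, Gsr, Txnrd1 and Srxn1, to 598 CPM, the highest level of the 10 genes. Nqo1, the quinone reductase (ENSMUSG00000003849, chromosome 8, 107388225 to 107403206, minus strand), measured 35.3 CPM in DMSO, 85.2 CPM after ADAR1i-124 and 51.0 CPM after 5-AZA-CdR. Its ratio to DMSO was 2.39-fold with ADAR1i-124 and 1.44-fold with 5-AZA-CdR.

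The glutathione genes were higher with ADAR1i-124 to differing degrees. Slc7a11, the cystine importer that supplies cysteine for glutathione (ENSMUSG00000027737, chromosome 3, 49892526 to 50443614, minus strand), measured 172 CPM in DMSO, 601 CPM after ADAR1i-124 and 354 CPM after 5-AZA-CdR. That is 3.48-fold and 2.05-fold above DMSO. Gclm, the modifier subunit of glutamate-cysteine ligase (ENSMUSG00000028124, chromosome 3, 122245557 to 122270732, plus strand), measured 65.5, 199.6 and 39.0 CPM. Its catalytic partner Gclc (ENSMUSG00000032350, chromosome 9, 77754535 to 77794485, plus strand) measured 61.4, 161 and 51.6 CPM. Both subunits of the enzyme that starts glutathione synthesis were thus higher with ADAR1i-124, 3.03-fold for Gclm and 2.60-fold for Gclc, and both lay below DMSO with 5-AZA-CdR, at log2 ratios of -0.74 (-0.85 to -0.64) and -0.25 (-0.35 to -0.15). Gsr, the reductase that regenerates glutathione (ENSMUSG00000031584, chromosome 8, 33652523 to 33698163, plus strand), measured 97.3, 175 and 122 CPM, and its ADAR1i-124 ratio of 1.80-fold stayed under the 2-fold line.

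Of the thioredoxin genes, Srxn1 encodes sulfiredoxin, which repairs overoxidized peroxiredoxins, and Txnrd1 encodes the cytosolic thioredoxin reductase. Srxn1 (ENSMUSG00000032802, chromosome 2, 152105516 to 152111376, plus strand) measured 82.6 CPM in DMSO, 429 CPM after ADAR1i-124 and 99.6 CPM after 5-AZA-CdR, the second largest ADAR1i-124 ratio of the 10 at 5.17-fold. Txnrd1 (ENSMUSG00000020250, chromosome 10, 82833951 to 82897712, plus strand) measured 279, 741 and 175 CPM, which is 2.65-fold above DMSO with ADAR1i-124 and 1.59-fold below it with 5-AZA-CdR. Osgin1, an oxidative stress-induced growth inhibitor (ENSMUSG00000074063, chromosome 8, 119434124 to 119446256, plus strand), was the lowest of the 10, at 6.60, 28.2 and 14.3 CPM. Its 133 counts in DMSO made its interval the widest, at a log2 ratio of 2.02 (1.82 to 2.38). Nfe2l2 (ENSMUSG00000015839, chromosome 2, 75675513 to 75704641, minus strand) measured 199.9, 214 and 286 CPM, a log2 ratio to DMSO of 0.10 (0.04 to 0.16) with ADAR1i-124 and 0.51 (0.46 to 0.57) with 5-AZA-CdR.

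With 5-AZA-CdR the 10 genes did not share a direction in total RNA. At least 2-fold above DMSO were 3 of 10 (Hmox1 at 3.33-fold, Osgin1 at 2.08-fold and Slc7a11 at 2.05-fold), none was 2-fold lower, and 7 of 10 had a ratio above 0. Over all 13930 genes 15.3% reached 2-fold higher and 9.86% 2-fold lower, beside which the 3 of 10 are to be read. The median log2 ratio of the 10 was 0.42, against 0.00 over all genes. Summed endothelial markers went from 3.42 CPM in DMSO to 16.1 CPM with ADAR1i-124 and 67.4 CPM with 5-AZA-CdR, nearly all of it Cdh5, and summed leukocyte markers from 7.00 to 17.1 and 62.3 CPM, nearly all of it Cd68. All 3 endothelial markers and 3 of the 4 leukocyte markers held more counts in the 5-AZA-CdR library than in DMSO, and Cd3e held 0 in both. Their part in the results was not tested. The 2 treatments share the DMSO library.

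**Figure D1:**
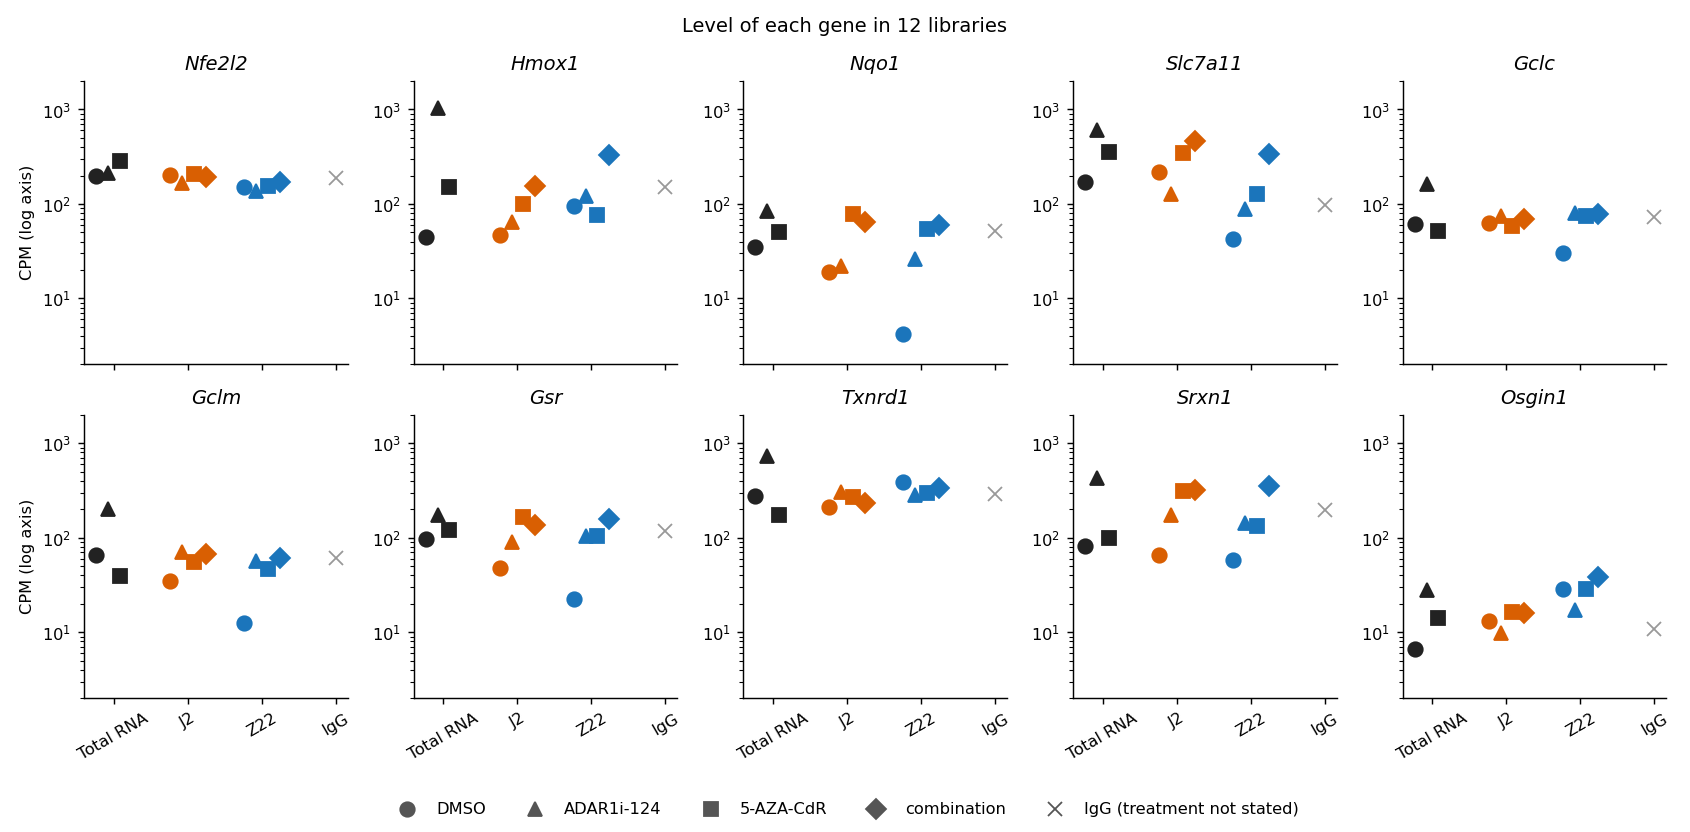
Level of each gene in the 12 libraries, in CPM on a log axis, by fraction on the horizontal axis (black, total RNA; orange, J2; blue, Z22; grey cross, IgG) and by treatment (DMSO circle, ADAR1i-124 triangle, 5-AZA-CdR square, combination diamond). Each point is 1 library. Hmox1 reached 1046 CPM in total RNA with ADAR1i-124 and 329 CPM or less in the 11 other libraries.

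J2-precipitated RNA did not carry the same ADAR1i-124 values. Only Srxn1 of the 10 genes was at least 2-fold above DMSO in J2, at 2.66-fold, and none was 2-fold lower. In J2, 7.51% of 13614 genes passed the 2-fold line upward and 10.8% downward. The median log2 ratio of the 10 genes was 0.36, against 0.01 over all genes. Summed leukocyte markers measured 61.6 CPM in J2 from DMSO cells, 6.69 after ADAR1i-124, 17.6 after 5-AZA-CdR and 17.3 after both, nearly all of it Cd68. Summed endothelial markers, mostly Cdh5, measured 8.80, 3.88, 60.8 and 57.5 CPM in the same order. Their part in the J2 results was not tested. Genes at large also differed between total RNA and J2. Of the 1088 genes at least 2-fold higher with ADAR1i-124 in total RNA, 100 were so in J2, which is 9.19% of the 1088 and 9.78% of the 1022 higher in J2. Across 12910 genes the log2 ratios of total RNA and J2 had a Pearson r of 0.14, and those of total RNA and Z22 had an r of 0.01 across 12622 genes. These are descriptions of pairs of libraries that share no library, across genes that are not independent.

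Hmox1 measured 47.0 CPM in J2 from DMSO cells and 64.9 CPM after ADAR1i-124, against 100.4 CPM after 5-AZA-CdR and 154 CPM after both compounds. The J2 ratio with ADAR1i-124 was thus 1.38-fold where total RNA had 23.2-fold. Slc7a11 pointed the other way in J2, at 219 CPM in DMSO and 126 CPM with ADAR1i-124, a log2 ratio of -0.79 (-0.88 to -0.71), with 348 CPM under 5-AZA-CdR and 459 CPM under the combination. Osgin1 measured 13.2 CPM in DMSO, 9.93 CPM after ADAR1i-124, 16.5 CPM after 5-AZA-CdR and 15.9 CPM after both. It was also below DMSO with ADAR1i-124 in J2, at a log2 ratio of -0.39 (-0.75 to -0.07). Nqo1 at 19.1 and 22.3 CPM had an interval for counting error that included 0. Gclm (35.0 and 69.8 CPM) and Gsr (48.1 and 89.8 CPM) came close to 2-fold, at 1.98-fold and 1.86-fold.

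In the J2 libraries from 5-AZA-CdR cells 9 of the 10 genes had a ratio to DMSO above 0, with either the compound alone or the combination, but fewer reached 2-fold. Gclc lay below DMSO with 5-AZA-CdR (57.8 and 62.5 CPM), and Nfe2l2 was at a log2 ratio of -0.07 with the combination. With 5-AZA-CdR alone, 4 of the 10 genes were at least 2-fold above DMSO and none was 2-fold lower, against 7.81% and 6.61% of 14030 genes. Srxn1 measured 65.8 CPM in J2 DMSO and 314 CPM, a 4.75-fold ratio. Nqo1 measured 78.2 CPM (4.01-fold), Gsr 165 CPM (3.41-fold) and Hmox1 was 2.13-fold higher. In total RNA with the same compound Srxn1, Nqo1 and Gsr were 1.20-fold, 1.44-fold and 1.25-fold above DMSO, less than in J2, and Hmox1 was 3.33-fold above it, more than in J2. With the combination, 5 of 10 were at least 2-fold above DMSO in J2 and none 2-fold lower, against 6.82% and 5.03% of 14098 genes. They were the same 4 genes (Srxn1, Nqo1, Hmox1 and Gsr, at 4.85, 3.29, 3.27 and 2.81-fold) and Slc7a11 (2.09-fold). With library totals alone as the scale, 67.9% of the calls for this comparison over all genes were higher rather than 57.6%. All J2 treatment values share the J2 DMSO library.

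Z22-precipitated RNA was at least 2-fold above DMSO for Nqo1, Slc7a11, Gclc, Gclm, Gsr and Srxn1 under every treatment, but all of these values rest on the DMSO library that stood apart. With DESeq2 size factors Slc7a11 with ADAR1i-124 fell under the line, at a log2 ratio of 0.85 rather than 1.03. With ADAR1i-124, 6 of 10 genes were at least 2-fold above DMSO, against 22.6% of 13384 genes higher and 14.6% lower. With 5-AZA-CdR it was 6 of 10, against 23.4% of 13928 genes higher and 16.8% lower, and with the combination 7 of 10, against 22.7% of 13841 genes higher and 15.1% lower. None of the 10 was 2-fold lower in these 3 comparisons. The median log2 ratios of the 10 genes were 1.17, 1.25 and 2.02, against 0.16, 0.14 and 0.14 over all genes. With library totals alone the medians over all genes became 0.81, 1.06 and 0.82, and the share of higher among all 2-fold calls 89.3%, 92.7% and 89.6% rather than 60.8%, 58.2% and 60.1%. With DESeq2 size factors the share for ADAR1i-124 was 49.1%. The counts of the 10 genes above the median of all genes were 7, 6 and 9 under each of these scales. Summed leukocyte markers in Z22 measured 25.8 CPM in DMSO, 13.8 after ADAR1i-124, 35.0 after 5-AZA-CdR and 54.3 after both, and summed endothelial markers 12.3, 4.59, 27.7 and 27.1 CPM. Their part in the Z22 results was not tested.

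Nqo1 showed the widest range in Z22, with 4.24 CPM (22 counts) in DMSO, 26.2 CPM after ADAR1i-124, 53.8 CPM after 5-AZA-CdR and 60.5 CPM after both. Gsr measured 22.7, 105, 104 and 159 CPM and Gclm 12.5, 56.2, 47.2 and 61.1 CPM in the same order. For these 3 genes the DMSO library was the low one and the other 3 lay closer together. Gclm with 5-AZA-CdR was 3.66-fold above DMSO in Z22 and 1.67-fold below it in total RNA. Gclc measured 30.1 CPM in DMSO and 73.7 to 80.2 CPM in the treated Z22 libraries.

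Hmox1, Slc7a11 and Srxn1 separated the combination from the single compounds in Z22. Hmox1 measured 94.4 CPM in DMSO and 120.1 CPM after ADAR1i-124, 76.4 CPM after 5-AZA-CdR and 329 CPM after both. Slc7a11 measured 43.0, 88.3, 127 and 335 CPM, and Srxn1 57.4, 143, 135 and 354 CPM. In each of the 3 genes the combination was the highest Z22 library. That also held for Nqo1, Gclm, Gsr, Osgin1 and Nfe2l2, by smaller margins over the single compounds, but not for Gclc and Txnrd1. Txnrd1 (386, 287, 298 and 339 CPM) and Nfe2l2 (151, 137, 154 and 172 CPM) stayed within 1.35-fold and 1.26-fold of their lowest Z22 value. Osgin1 measured 28.3, 17.2, 28.3 and 38.4 CPM, and with ADAR1i-124 lay 1.63-fold below DMSO, a log2 ratio of -0.70 that was -0.04 with library totals alone. On that scale Hmox1 with ADAR1i-124 passed the 2-fold line, at a log2 ratio of 1.02 rather than 0.34, and so did Osgin1 with the combination, at 1.14 rather than 0.43. With library totals alone the Z22 ratio to DMSO changed sign for Txnrd1 under all 3 treatments, for Nfe2l2 with ADAR1i-124 and for Hmox1 with 5-AZA-CdR. With DESeq2 size factors it did so for Nfe2l2 and Osgin1 with 5-AZA-CdR.

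**Figure D2:**
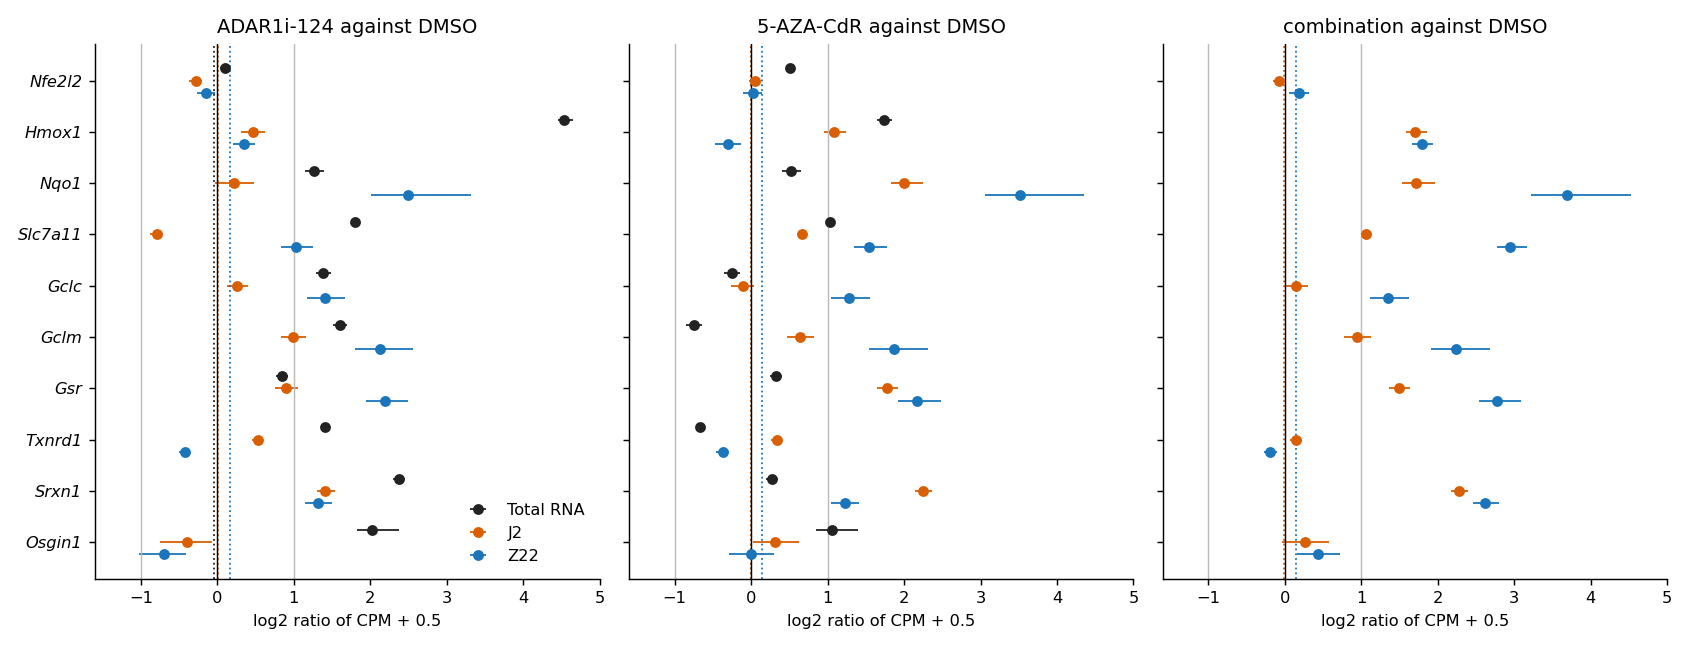
Log2 ratio of CPM + 0.5 to the DMSO library of the same fraction for each gene, by treatment (black, total RNA; orange, J2; blue, Z22). Bars are 95% exact binomial intervals for counting error, dotted lines the median of all genes, and grey lines mark 2-fold. The ADAR1i-124 values of Hmox1 are 4.54 in total RNA, 0.46 in J2 and 0.34 in Z22 (1.02 in Z22 with library totals alone).

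The combination was also set against 5-AZA-CdR alone, a comparison added after the data had been seen because it does not use the Z22 DMSO library. In Z22, all 10 genes had a ratio above 0 and 3 were at least 2-fold higher, with none 2-fold lower. These were Hmox1 at 4.29-fold, Slc7a11 at 2.64-fold and Srxn1 at 2.63-fold. Over 14165 genes 3.79% passed 2-fold upward and 4.28% downward, and the median log2 ratio was 0.05, against 0.40 for the 10 genes. With library totals alone the same 3 genes passed 2-fold, Nfe2l2, Nqo1, Gclc and Txnrd1 changed sign, and 24.3% rather than 47.0% of all 2-fold calls were higher. In J2 none of the 10 genes passed 2-fold in either direction, against 1.20% of 14100 genes higher and 0.773% lower. Hmox1 had the largest J2 ratio, at 1.54-fold, and 5 of the 10 genes lay above 0. The interaction of fraction and treatment could not be tested with 1 library per condition.

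Setting the fractions side by side within each treatment showed where total RNA and precipitated RNA parted. In ADAR1i-124 cells all 10 genes were lower in J2 than in total RNA, with log2 ratios from -4.00 (Hmox1) to -0.36 (Nfe2l2) and a median of -1.37, against -0.07 over all genes. All 10 were also lower in Z22 than in total RNA, from -3.12 (Hmox1) to -0.64 (Nfe2l2) with a median of -1.47, against -0.05 over all genes. In DMSO cells 5 of 10 were lower in J2, with a median of -0.15 against -0.09 over all genes, and 7 of 10 were lower in Z22, with a median of -0.77 against -0.22. In 5-AZA-CdR cells 3 of 10 were lower in J2 and 4 of 10 in Z22, with medians of 0.32 and 0.17, against -0.10 and -0.13 over all genes. The ADAR1i-124 values use the same total RNA library whose levels are given above and are not independent of them.

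**Figure D3:**
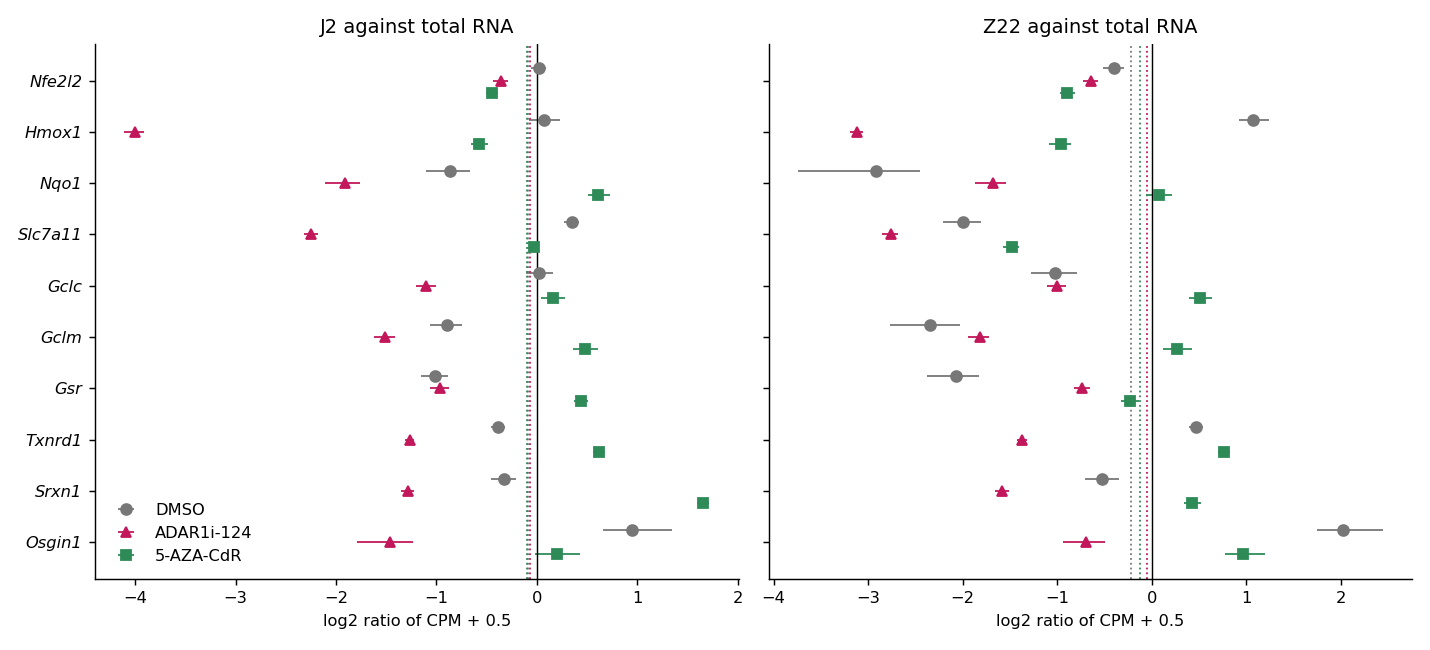
Log2 ratio of CPM + 0.5 of J2 (left) and Z22 (right) to total RNA of the same treatment for each gene (grey circle, DMSO; magenta triangle, ADAR1i-124; green square, 5-AZA-CdR). Bars are 95% exact binomial intervals for counting error and dotted lines the median of all genes. All 10 ADAR1i-124 values lie below 0 in both panels.

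A test of fraction was possible only by taking treatments as repeats. This test used edgeR's quasi-likelihood test with treatment as a block over 11 libraries and 15745 genes, with Benjamini-Hochberg adjustment over all of them. The block takes out differences between treatments that the fractions share. What stays in the error is how far the difference between fractions varied from treatment to treatment. None of the 10 genes passed an adjusted p of 0.05 in J2 against total RNA, where 0.235% of genes were called higher and 0.0318% lower, or in Z22 against total RNA, where 0.387% were called higher and 0.140% lower. In Z22 against J2 the calls were 0% in each direction, while 2130 genes had an unadjusted p under 0.05 in edgeR and DESeq2 called 368. Unadjusted p was under 0.05 for 1, 5 and 2 of the 10 genes in the 3 contrasts, against 13.8%, 24.5% and 13.5% of all genes. The median fitted log2 ratios of the 10 were -0.54, -0.78 and -0.31, against -0.11, -0.13 and -0.06 over all genes. Slc7a11 in Z22 against total RNA had the smallest edgeR adjusted p of the 10, 0.069, at a log2 ratio of -2.02. It passed 0.05 with DESeq2's Wald test, which called 4.66% of all genes lower, and in edgeR without the total RNA DMSO library (-2.31) and without the J2 DMSO library (-2.09). Without a filter on low counts, edgeR called 4 of the 10 lower in Z22 against total RNA (Hmox1, Nqo1, Slc7a11 and Gclm), Hmox1 lower in J2 against total RNA and Slc7a11 lower in Z22 against J2, beside 2.92%, 0.915% and 0.515% of the 33781 genes then tested. Hmox1 in J2 against total RNA had a log2 ratio of -1.81 and an edgeR adjusted p of 0.32, and it passed 0.05 without the total RNA DMSO library (-2.65). A missed threshold in a fit of this kind does not show that the fractions held equal levels.

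The same fit tested treatment with fractions as the repeats, and this test was added after the data had been seen. Fraction is a term of the fit, so the error holds how far the treatment difference varied from fraction to fraction. Per the study's methods, harvested RNA was divided into precipitated and input portions, and no separate cultures per fraction are stated. The p-values of this test therefore do not measure spread between cultures. With ADAR1i-124 none of the 10 genes passed an edgeR adjusted p of 0.05, where 0.0127% of genes were called higher and 0.127% lower, while DESeq2's Wald test called Gclm and Srxn1 higher, with 0.909% of all genes. With 5-AZA-CdR none passed in edgeR, where 3.37% of genes were called higher and 0.896% lower, and DESeq2 called Nqo1 and Gsr higher, with 5.64% of all genes. With the combination edgeR called 1 of the 10 higher, against 2.57% of genes higher and 0.489% lower, and DESeq2 called 4 (Srxn1, Nqo1, Slc7a11 and Gsr), with 4.41% of all genes. The gene called in edgeR was Srxn1, at a log2 ratio of 2.47 and an adjusted p of 0.037. For the combination the fit held only its J2 and Z22 libraries. Srxn1 is thus called without a repeat of the treated culture. The levels of Srxn1 were 65.8 CPM in J2 and 57.4 CPM in Z22 from DMSO cells and 321 and 354 CPM after both compounds. The call was lost when 1 library was left out, for the J2 libraries of DMSO, ADAR1i-124 or the combination and for each of the 4 Z22 libraries, with log2 ratios of 2.03 to 2.83. Unadjusted p in edgeR was under 0.05 for 6, 3 and 6 of the 10 genes in these 3 comparisons, against 14.0%, 17.3% and 15.8% of all genes. The median fitted log2 ratios of the 10 were 1.11, 0.66 and 1.58, against 0.03, 0.04 and 0.04 over all genes. With library totals alone the medians over all genes became 0.20, 0.37 and 0.32, and the share of higher among all calls 92.7% rather than 79.0% with 5-AZA-CdR and 94.8% rather than 84.0% with the combination. Without a filter edgeR called 5, 4 and 6 of the 10 genes higher, beside 0.690%, 3.29% and 2.89% of 33781 genes.

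The precipitated libraries were also set against IgG. The IgG library held 151 CPM of Hmox1, 197 CPM of Srxn1, 293 CPM of Txnrd1 and 97.7 CPM of Slc7a11. Slc7a11 was above IgG in all 4 J2 libraries, at log2 ratios of 1.16 in DMSO, 0.37 after ADAR1i-124, 1.83 after 5-AZA-CdR and 2.23 after both. In J2 the median log2 ratio of the 10 genes to IgG was -0.63 in DMSO and -0.14 after ADAR1i-124, 0.33 after 5-AZA-CdR and 0.17 after both, and all-gene medians ran from -0.09 to -0.07. In Z22 it was -1.23, -0.15, -0.08 and 0.32, with all-gene medians from -0.19 to -0.08. Osgin1 stood highest in Z22, 1.78 above IgG with the combination and 1.35 in each of DMSO and 5-AZA-CdR. Since the treatment of the IgG cells was not stated, these ratios mix antibody and treatment, which cannot be told apart.

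Some reads could belong to overlapping genes. Gm17494 lies on the strand opposite Gclm and held 135 counts in J2 DMSO, where Gclm held 414. It held 62 in Z22 DMSO, where Gclm held 65. The small nucleolar RNA gene Gm24727 lies within Gsr on the same strand and held 344 counts in J2 DMSO, where Gsr held 568, and 3 in Z22 DMSO, where Gsr held 118. These DMSO libraries are the base of the J2 and Z22 ratios of Gclm and Gsr. Gm37498 lies within Slc7a11 on the same strand with 65, 236 and 541 counts in the total RNA libraries in the order used above, and Eid3 overlaps Txnrd1 on the same strand with 137 to 286. How the counting assigned shared reads was not stated.

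The wider pathway stood closer to DMSO than the 9 targets in total RNA with ADAR1i-124. Of 12 regulators of NRF2, 3 were at least 2-fold above DMSO and none 2-fold lower, with a median log2 ratio of 0.33, beside 8.17% of all genes higher and 7.50% lower. Sqstm1, the autophagy receptor p62 that binds KEAP1, measured 598 CPM in DMSO and 2024 CPM with ADAR1i-124, or 3.38-fold. The small MAF partners Maff and Mafk were the other two, at log2 ratios of 1.29 and 1.10, while Keap1 was at 0.05, and these 3 genes were named after their values were seen. Of 54 other pathway genes, 45 passed the mean of 1 CPM, and 8 were at least 2-fold higher and 1 lower, with a median log2 ratio of -0.06. Blvrb, a biliverdin reductase that acts after heme oxygenase, had the largest ratio at 8.25-fold (8.93 and 77.3 CPM). The efflux pump Abcc4 was 3.85-fold higher and Ftl1, the ferritin light chain, 2.98-fold higher, although reads of Ftl1 may be shared with processed copies. Idh1, a cytosolic source of NADPH, was 5.72-fold lower, at 144 CPM in DMSO and 24.7 CPM with ADAR1i-124. None of the 10 thioredoxin and peroxiredoxin genes of the list passed 2-fold in either direction.

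**Figure D4:**
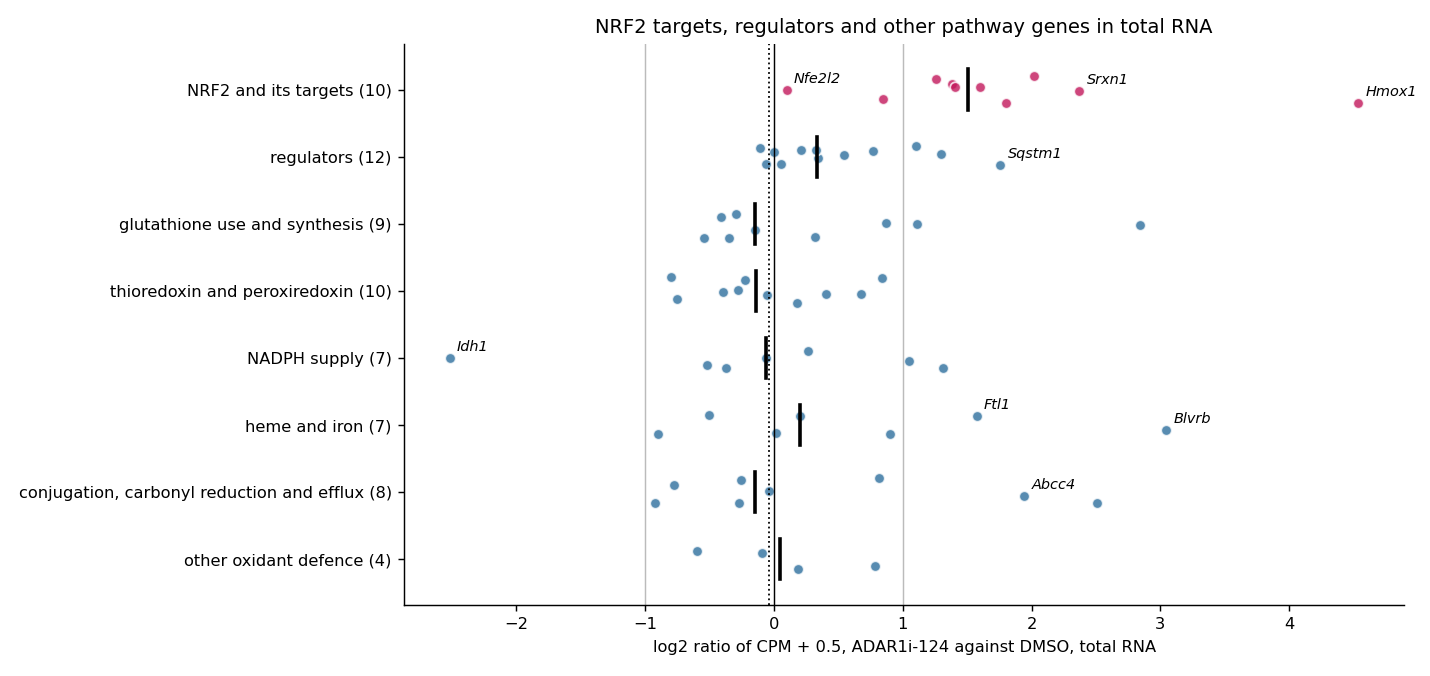
Log2 ratio of CPM + 0.5 with ADAR1i-124 against DMSO in total RNA for NRF2 and its 9 targets (magenta) and for regulators and other pathway genes by role (blue), with the number of genes of at least 1 CPM in brackets. Black bars are group medians, the dotted line the median of all genes and grey lines mark 2-fold. The median of the magenta group is 1.50 and those of the other groups lie between -0.14 and 0.33.

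With 5-AZA-CdR in total RNA none of the 12 regulators passed 2-fold, and of 44 other pathway genes above the mean of 1 CPM 6 were at least 2-fold higher and 5 lower, shares close to the 15.3% and 9.86% of all genes. Ggct of the glutathione cycle was 3.76-fold higher, Blvrb 3.25-fold and Abcc4 2.61-fold, and mitochondrial peroxiredoxin Prdx3 and the folate enzyme Mthfd1l were at log2 ratios of -1.62 and -1.57. In J2 with ADAR1i-124, Sqstm1, named there after its value was seen, was at -0.38 where total RNA had 1.76. In Z22 the combination exceeded 5-AZA-CdR for Blvrb (2.78-fold) and Sqstm1 (2.35-fold). Sqstm1 was the only 1 of the 12 regulators past 2-fold there, beside 3.79% of all genes higher and 4.28% lower.

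The likeness of the 10 profiles was described over the 11 libraries other than IgG. The correlation of each gene with the mean of the other 9, on log2 values centred within each fraction, was 0.95 for Srxn1, 0.85 for Slc7a11, between 0.77 and 0.82 for Gsr, Gclm, Nqo1, Hmox1 and Gclc, 0.65 for Osgin1, 0.42 for Txnrd1 and 0.11 for Nfe2l2. The points share libraries and scaling factors and are few, and no typical value for other genes was computed, so these are descriptions. Among 8810 other genes averaging 10 CPM or more, the profiles most like the mean of the 10 were those of Serpinb9b (Pearson r 0.97), Als2cl (0.97) and Stam2 (0.96).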

How the data were processed

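The authors deposited 1 table of raw counts per gene, unnormalized, for 13 libraries of ribosomal-RNA-depleted RNA. Per the study's methods reads were aligned with STAR in the snakePipes pipeline, and per the labels the build was mm10 (GRCm38). The counting tool and its strand setting were not given in the sources used here. Symbols came from GENCODE M21, which matched 54495 of 54532 identifiers, and exon lengths are unions of its exons. Groups came from the labels, with 1 library each. The p-values of fraction tests therefore rest on how far fraction differences varied between treatments. Those of treatment over fractions rest on how far treatment differences varied between fractions. Counts were scaled to CPM with TMM factors over 12 libraries (edgeR 4.0.16, R 4.3.3), and the combination library of total RNA was left out. Treatment comparisons were log2 ratios of CPM + 0.5, with a 2-fold line and a mean of at least 1 CPM for the all-gene background. Intervals are exact binomial at 95% (scipy 1.17.1). Fractions were tested with edgeR's quasi-likelihood test with a treatment block (Benjamini-Hochberg, adjusted p under 0.05). The same fit gave a test of treatment over fractions, added after the data had been seen. Alternatives were library totals, DESeq2 1.42.0 size factors and Wald test, pseudocounts of 0.1 and 2, filters, the block, a 1.5-fold line and leaving out libraries.

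The 10 genes and all lists were chosen with earlier results of these data known. Named were all 10 genes, at most 5 listed genes per comparison with the largest absolute log2 ratio at a mean of at least 10 CPM, and the 3 most like profiles. Of the lists, genes named outside this rule are marked. 1 leukocyte marker gene is not reported here.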

Additional observations from a re-analysis of the deposited data

Results flagged for a closer look

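Opposite directions in different fractions under the same treatment, beyond counting error and past 2-fold in at least 1 fraction and 1.5-fold in the other, were found for 3 of the 10 genes. In each pair of fractions below that is 1 of 10 genes, and by the same rule with ADAR1i-124 4.63% of all genes were opposite in total RNA and J2, 8.81% in total RNA and Z22 and 1.94% in J2 and Z22, and with 5-AZA-CdR 11.7% in total RNA and Z22. These shares became 4.75%, 11.4%, 3.93% and 13.6% with library totals alone. The differences were not tested, since each value rests on 2 libraries. Slc7a11 with ADAR1i-124 was at a log2 ratio of 1.80 in total RNA and -0.79 in J2, a difference of 2.59, and it was at 1.03 in Z22, so that J2 minus Z22 was -1.82. With DESeq2 size factors its Z22 value was 0.85, under the 2-fold line. Osgin1 with ADAR1i-124 was at 2.02 in total RNA and -0.70 in Z22, a difference of 2.72. On library totals alone its Z22 value was -0.04, so that the opposite direction was no longer past the line. Gclm with 5-AZA-CdR was at -0.74 in total RNA and 1.87 in Z22, a difference of -2.61. The Z22 values use the Z22 DMSO library, which stood apart, and their part in these differences was not tested.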

How the results depend on the processing

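Over the comparisons of 2 libraries, the numbers of the 10 genes past 2-fold stayed within 1.5 times under library totals, DESeq2 size factors, pseudocounts of 0.1 and 2 and no filter. The 1.5-fold line gave 2 genes lower with 5-AZA-CdR in total RNA (0 at 2-fold), 3 higher and 1 lower with ADAR1i-124 in J2 (1 and 0), 1 lower with ADAR1i-124 in Z22 (0) and 1 higher in J2 with the combination against 5-AZA-CdR (0). Library totals kept the sign of 89 of 100 gene ratios and DESeq2 size factors of 98. No ratio past 2-fold reversed. In the fraction fits 0 of the 10 genes were called, but DESeq2's Wald test called 1 lower in Z22 against total RNA, and without a filter edgeR called 1 lower in J2 against total RNA (Hmox1), 4 lower in Z22 against total RNA (Hmox1, Nqo1, Slc7a11 and Gclm) and 1 lower in Z22 against J2 (Slc7a11). The cause was not tested. Leaving out 1 library gave 0 to 1 genes lower in J2 against total RNA and in Z22 against total RNA. The calls over all genes in J2 against total RNA, Z22 against total RNA and Z22 against J2 numbered 42, 83 and 0. They were 22, 30 and 0 with library totals, 567, 1816 and 368 with DESeq2's Wald test, 659, 1809 and 553 without a filter, 25, 38 and 1 without the treatment block, and 3, 11 and 0 with the 2 fractions alone. In Z22 against total RNA 73.5% of calls were higher, and 63.3% with library totals. Leaving out a library gave 10 to 777 calls in J2 against total RNA (777 without total RNA DMSO, 357 without Z22 DMSO) and 11 to 405 in Z22 against total RNA (405 without total RNA DMSO, 210 without J2 DMSO). In the tests of treatment over fractions the genes of the 10 called higher with ADAR1i-124, 5-AZA-CdR and the combination numbered 0, 0 and 1, and 2, 2 and 4 with DESeq2's Wald test and 5, 4 and 6 without a filter. Leaving out a library gave 0 to 2 (2 without total RNA DMSO), 0 to 3 (3 without total RNA 5-AZA-CdR) and 0 to 4 (4 without total RNA 5-AZA-CdR). Calls over all genes were 22, 671 and 482, and 0, 660 and 485 with library totals, 659, 1388 and 1103 with DESeq2's Wald test, 865, 1636 and 1445 without a filter, and 0 to 1786 (1786 without total RNA DMSO), 176 to 956 (176 without J2 5-AZA-CdR) and 72 to 616 (72 without Z22 combination) without a library. Depth limited Nqo1 in Z22 DMSO most, at 22 counts, and 1 library per condition leaves all treatment ratios within a fraction without a replicate check.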
